A study of Sus scrofa with 6 samples.

Results

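The genes described here carry glucose through glycolysis to pyruvate, exchange pyruvate with lactate, move both across membranes and control the entry of pyruvate into the mitochondrial citric acid cycle. They are 34 genes taken by symbol, for their role in the pathway, from the 17201 genes of the count files. All 34 were found, and all 34 passed the filter on low counts that left 14373 genes for testing.

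RNA came from the prefrontal cortex of 6 pigs (Sus scrofa) aged 3 months, 1 library per animal. Animals 391, 392 and 393 were exposed to valproic acid (VPA), an epilepsy drug and histone deacetylase inhibitor, in early gestation at a dose of 75 mg/kg, as the labels state. The series uses this exposure to model autism in pigs. Animals 401, 402 and 408 served as controls, and their labels state "no treatment". Strain, sex and litter were not stated, so the p-values measure the spread between these 6 animals only.

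Glucose is the main fuel of the brain. Hexokinase traps it in the cell, phosphofructokinase commits it to glycolysis, and the later enzymes harvest ATP and end in pyruvate. Lactate dehydrogenase turns pyruvate into lactate and back: LDHA subunits are known to favour lactate formation and LDHB subunits its oxidation. Monocarboxylate transporters pass lactate between cells, in brain above all between astrocytes, vessels and neurons. Pyruvate that enters mitochondria is oxidised by the pyruvate dehydrogenase complex, which its kinases (PDKs) switch off and its phosphatases switch on.

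The libraries held 16285517 to 17989032 counts, and values are given as counts scaled to these totals (CPM), so that 1 CPM stood for 16.3 to 18.0 reads. Markers of cortical cells fixed for this work were present, with none of the neuron, astrocyte, oligodendrocyte, microglia or endothelial markers at 0 in any library. Summed over 11 markers, neurons stood at 9813 to 10375 CPM in VPA and 10491 to 10706 CPM in controls. The sum over 9 astrocyte markers was 10635 to 12056 CPM in VPA and 9884 to 10342 CPM in controls. For 12 oligodendrocyte markers it was 17313 to 19470.3 CPM in VPA and 13278 to 17801 CPM in controls. Over 8 markers of striatal projection neurons it was 160.5 CPM in VPA 391, 177 in VPA 392 and 537 in VPA 393, and 124 to 140.03 CPM in controls. Sums over 9 microglia markers were 489 to 499 CPM in VPA and 401 to 502 CPM in controls. Those over 8 endothelial markers were 319 to 388 and 326 to 352 CPM. For 5 red blood cell markers, 2 of them at 0 in at least 1 library, sums were 127 to 207 CPM in VPA. They were 23.6 CPM in control 401, 210 in control 402 and 47.5 in control 408. Thus neuron marker sums were lower, and astrocyte and striatal marker sums higher, in every VPA library than in any control. The oligodendrocyte, microglia, endothelial and red blood cell ranges overlapped. The neuron list was divided: 8 of 11 markers had a negative log2 fold change of VPA over control, 5 of them without overlap. The 3 positive ones were GAD1 (0.099), GAD2 (0.12) and MAP2 (0.058), and GAD1 was higher in every VPA library than in any control. In bulk tissue, fewer cells of a type and less RNA per cell cannot be told apart.

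Per gene length the members covered a wide range, and 13 of the 34 had a mean of at least 100 FPKM (fragments per kilobase of gene length, scaled to library size). GAPDH, which oxidises glyceraldehyde-3-phosphate, stood highest at 2178 ± 109 FPKM in VPA and 2209 ± 118 FPKM in controls (SD, n = 3 each, as for all values with ± in this form). ALDOC, the aldolase known from astrocytes and neurons of the brain, followed at 988 ± 61.3 and 1011 ± 57.4 FPKM. Among the enolases and hexokinases, the forms known from brain led. ENO2, the neuronal enolase, took 63.0% ± 0.866 of the summed FPKM of ENO1 and ENO2 in VPA and 63.9% ± 0.365 in controls. HK1, the general brain hexokinase, held 98.8% ± 0.315 of the HK1 and HK2 sum in VPA and 99.0% ± 0.168 in controls. The lowest levels belonged to HK2 (1.02 to 1.88 FPKM over the libraries), the lactate exporter SLC16A3 (0.921 to 1.49 FPKM) and the monocarboxylate transporter SLC16A7 (0.149 to 0.265 FPKM). These 3 genes rested on 57 to 98, 68 to 119 and 32 to 61 reads per library, so their fold changes are the least precise of the set together with the variable LDHB and PDK4.

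**Figure D1:**
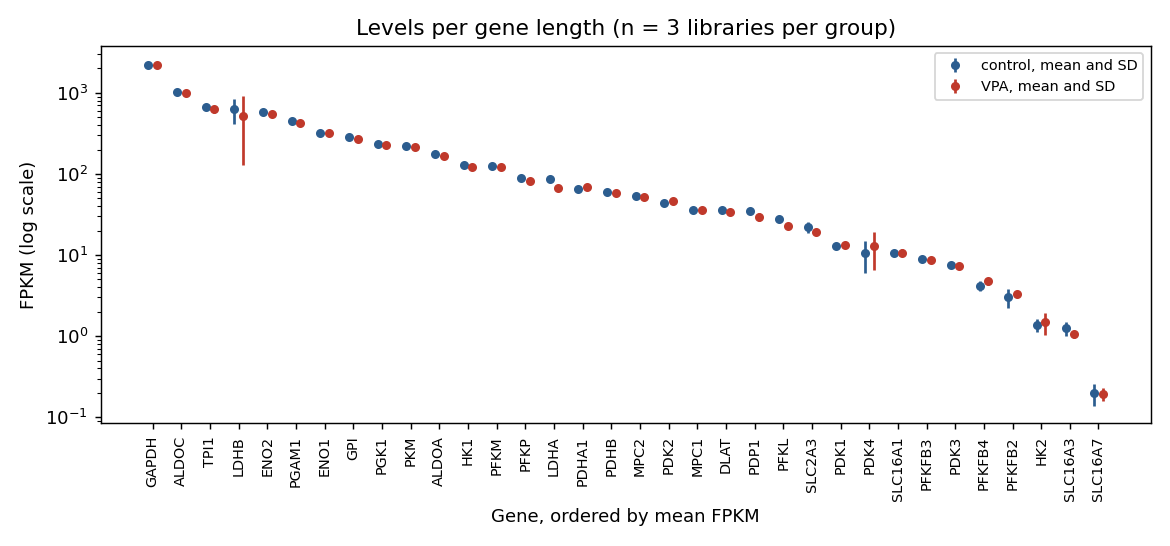
Mean FPKM (log scale) of each of the 34 genes in control (blue) and VPA (red) libraries, with SD as bars (n = 3 each). GAPDH lies at 2194 FPKM and SLC16A7 at 0.197 FPKM over all 6 libraries, and the long bars of LDHB and PDK4 show their spread between animals.

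Between VPA and control cortex, 1 of the 34 genes passed the test: LDHA fell by 0.39 on the log2 scale. By edgeR's quasi-likelihood test with Benjamini-Hochberg adjustment over all genes tested, at an adjusted p under 0.05, 52 of 14373 genes (0.362%) were called, 12 of them lower in VPA (0.0835%). The remaining members did not pass, and in 19 of the 34 the log2 fold change lay within 0.1 of 0. Estimates of members not called ran from -0.31 (LDHB) to 0.28 (PDK4), and PFKL had -0.28 with an adjusted p of 0.0667. The median size of the log2 fold change without its sign was 0.080 over the members and 0.108 over all genes tested. Negative estimates were nonetheless more frequent than positive ones, at 26 of 34 members against 49.5% of all genes tested. The median log2 fold change was -0.07 over the members and 0.0018 over all genes tested. Among the 15 enzymes that carry glucose to pyruvate, 14 had a negative estimate, all but HK2.

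**Figure D2:**
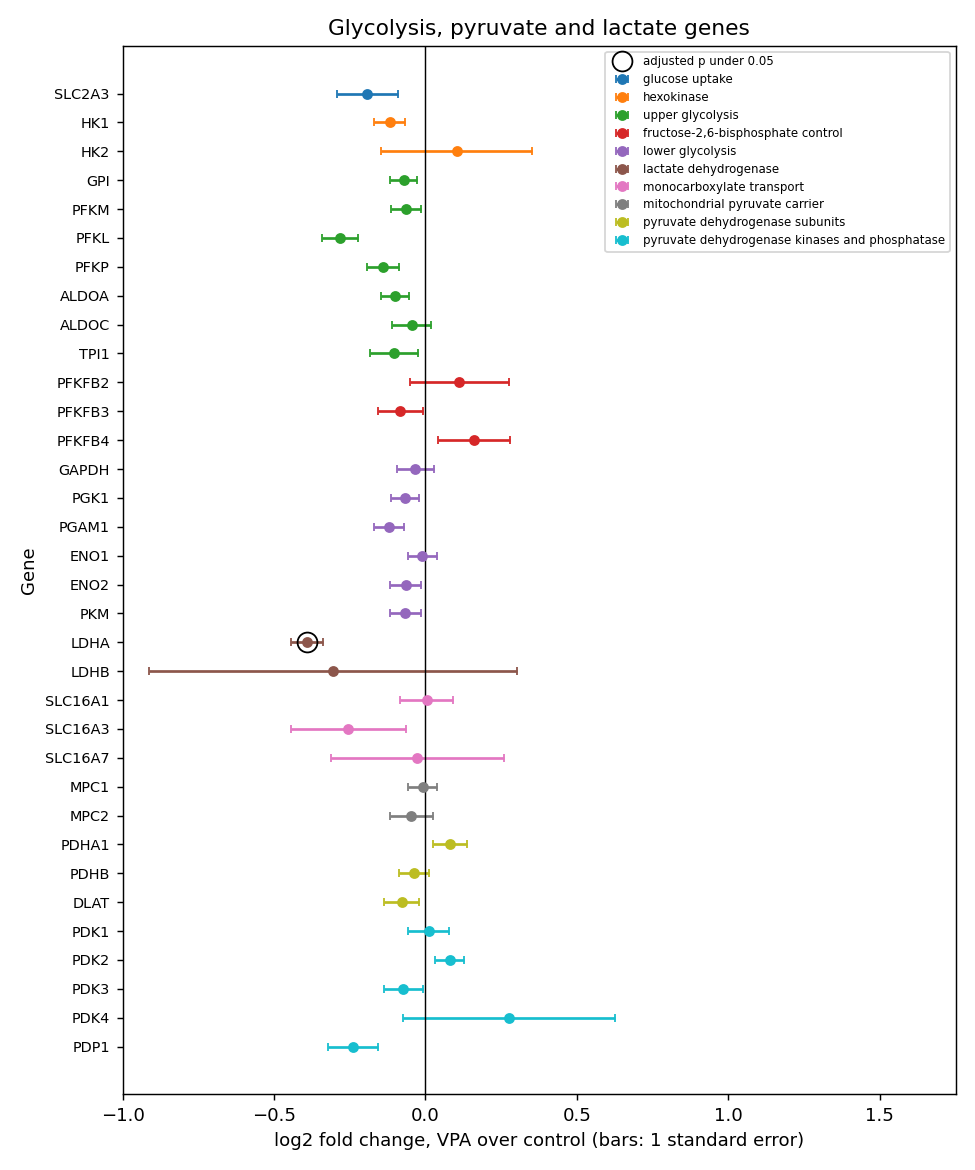
Log2 fold change of VPA over control for each gene (points, coloured by role) with 1 standard error from the edgeR fit. LDHA at -0.39 is ringed as the gene past the adjusted threshold of 0.05, PFKL at -0.28 comes next, and LDHB and PDK4 have the widest bars.

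Groups did not overlap in 10 of the 34 genes (21.2% of all genes tested), 9 of them lower in VPA (26.5%, where 9.07% of all genes tested were lower without overlap) and 1 higher, where 12.1% of all genes were. The 9 were LDHA, the phosphofructokinase genes PFKL, PFKP and PFKM, HK1, GPI, ALDOA, PGK1 and PGAM1. The other was PDK2. At an unadjusted p under 0.05, which 16.2% of all genes reached, there were 6 lower members (7.47% of all genes) and 0 higher (8.69%). The count of 9 was 13 without control 401 (14.6% of all genes), 15 with VPA 391 and control 401 both left out (18.8%), and between 9 and 11 without any 1 other library (12.4% to 15.9% of all genes).

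The estimates moved with cell type markers. With the mean log2 level of the oligodendrocyte markers as a covariate, 20 of the 34 members had a negative estimate. Among the 15 enzymes from glucose to pyruvate 7 did, and the median over the members was -0.02. Not all of the 20 were among the 26 negative without a covariate, as PFKFB2, PFKFB4, PDK1 and PDK4 turned from positive to negative. With the neuron markers as covariate, 14 of 15 enzymes and 23 of 34 members had a negative estimate, with a median of -0.09. PDK2 was the 1 member that turned negative there. Both marker levels differed between the groups without overlap, at 9.17 to 9.25 in VPA against 8.67 to 9.05 in controls for oligodendrocytes and at 8.88 to 8.91 against 8.92 to 8.96 for neurons (mean log2 CPM). Their part and that of the exposure cannot be told apart in these 6 libraries.

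LDHA encodes the lactate dehydrogenase subunit that is best known for making lactate when glycolysis runs fast. It had 242 CPM in control 401, 240.1 in control 402 and 256 in control 408. In the exposed animals it had 176 CPM in VPA 391, 196 in VPA 392 and 196 in VPA 393. Every VPA library was below every control, and the distance between the groups exceeded the spread within either. The means were 189 ± 11.4 CPM in VPA and 246 ± 8.54 CPM in controls, a log2 fold change of -0.39 ± 0.053 (SE, adjusted p = 0.0396), or 23.7% lower.

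The size of the LDHA difference was steady, while its call was close to the threshold. Over 21 alternatives the log2 fold change of LDHA ran from -0.45 to -0.35 and passed in 10, with adjusted p from 9.38e-07 (DESeq2) to 0.559. The call was lost without VPA 391 (adjusted p = 0.104), VPA 392 (0.129), VPA 393 (0.0556), control 402 (0.0743) or control 408 (0.0990), and held without control 401 (0.0353). With the oligodendrocyte markers as covariate the estimate was -0.40 (adjusted p = 0.559), and with the neuron markers -0.45 (adjusted p = 0.301). The Y-linked gene EIF1AY was at 4.74 to 4.93 log2 CPM in 2 libraries of each group and near the floor in VPA 392 and control 401. With its level as a covariate LDHA had -0.39 (adjusted p = 0.0395).

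The row named LDHB varied more between libraries than any other of the 34, and which gene it counts is uncertain. It read 88.1 CPM in VPA 391, 958 in VPA 392 and 937 in VPA 393. Controls had 499 CPM in control 401, 1014 in control 402 and 906 in control 408. Of the 6 libraries 4 thus lay close together (954 ± 45.5 CPM, SD over both groups, n = 4), while control 401 had 52.3% and VPA 391 had 9.24% of that level. The 2 low libraries belong to different groups. The log2 fold change of LDHB was -0.31 ± 0.61 (adjusted p = 0.847). It was 0.21 without VPA 391, -0.57 without control 401 and -0.05 without both, the last comparing 947 with 960.1 CPM. With oligodendrocyte markers as covariate it was 0.64, and with neuron markers -3.12.

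**Figure D3:**
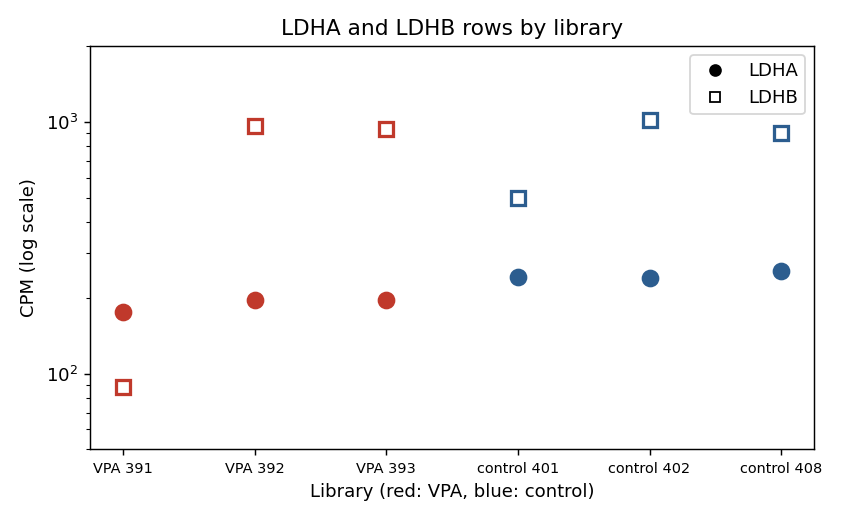
CPM (log scale) of the LDHA row (filled circles) and the LDHB row (open squares) in each library, VPA in red and control in blue. LDHB is at 88.1 CPM in VPA 391 and 499 CPM in control 401 but at 906 to 1014 CPM elsewhere, and LDHA shows no such step.

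This spread was rare among expressed genes. The highest LDHB value was 11.5 times the lowest, where the median over 10222 tested genes with a mean of at least 10 CPM was 1.21 and 10 genes had a wider range. For PDK4 the ratio was 2.85, and for the other 29 members above that level it was 1.04 to 1.62. A search made after these values were seen asked which genes were below 0.5 times the other libraries in VPA 391 and below 0.8 times in control 401. As the limits were chosen with the LDHB values in view, that LDHB met them carries no information. It was the 1 gene of 10664 that did, and 0 genes were high in both libraries by the inverse factors. These counts rest on libraries and limits chosen from LDHB itself, so they do not test how rare such a pattern is.

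The name itself covers 2 genes. In the RefSeq table of the Sscrofa11.1 assembly, 2 protein-coding entries have the symbol LDHB, with spans of 1280 and 20287 bases, while each of the other members has 1 entry. The gene length behind the deposited LDHB FPKM values was 1280 bases, the whole span of the shorter entry, and for no other member did length and span coincide. Which annotation was counted is not stated. Reads that fit both entries cannot be assigned between them from these files, so the level of the longer gene is not known from this row. Of the genes beside the shorter entry, DTX4, ZFP91, CTNND1 and SELENOH varied 1.09 to 1.28 times between the lowest and the highest library. Beside the longer entry ST8SIA1, CMAS and GOLT1B varied 1.10 to 1.16 times. SPX, on the same side as GOLT1B, varied 1.57 times and was lowest in the same 2 libraries as LDHB, with 20.7 CPM in VPA 391, 21.6 in control 401 and 27.1 to 32.6 in the others.

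The share of LDHA in the summed FPKM of both lactate dehydrogenase rows followed LDHB. It was 47.8% in VPA 391 and 18.2% in control 401, and 8.57% to 11.4% in the other 4 libraries (exact permutation test, p = 1). The ratio of the 2 subunits therefore cannot be read from these files.

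None of the members for glucose uptake and trapping passed the test. SLC2A3, the neuronal glucose transporter GLUT3, had 94.9, 91.9 and 89.1 CPM in VPA 391, 392 and 393. In controls 401, 402 and 408 it had 86.1, 119 and 107 CPM, so the groups overlapped through control 401 (log2 fold change -0.19 ± 0.10, adjusted p = 0.378). The log2 fold change of SLC2A3 was -0.32 without control 401 (adjusted p = 0.0630), -0.09 without control 402, and 0.19 with oligodendrocyte markers as covariate.

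HK1 read 450.1, 431 and 420.4 CPM in VPA 391, 392 and 393 and 454, 479.8 and 466 CPM in controls 401, 402 and 408. The groups were apart by a narrow margin (-0.12 ± 0.050, adjusted p = 0.280). HK2, the inducible hexokinase, ran from 3.17 to 5.86 CPM in VPA and from 3.58 to 5.10 CPM in controls, with full overlap (0.10 ± 0.25, adjusted p = 0.877).

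The 3 phosphofructokinase genes, whose subunits form the main control step of glycolysis, all had negative estimates of different size. PFKL, named for liver, had 66.3 CPM in VPA 391, 63.2 in VPA 392 and 69.6 in VPA 393. Controls 401, 402 and 408 had 82.4, 76.8 and 80.6 CPM. All VPA libraries were lower, with a gap wider than the spread within groups (-0.28 ± 0.059, adjusted p = 0.0667). The log2 fold change of PFKL was called by DESeq2 (adjusted p = 0.0141), which called 444 of 12198 genes (3.64%), 189 of them lower (1.55%). It also passed with a robust dispersion (adjusted p = 0.0483, where 1.17% of all genes were called, 0.383% lower). These were the 2 of 21 alternatives in which PFKL passed. Over all 21 its log2 fold change ran from -0.34 to -0.22, with adjusted p up to 0.684. At an adjusted p under 0.1, LDHA and PFKL passed, where 344 genes (2.39%) did, 129 of them lower (0.898%).

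PFKP, the platelet form that is also abundant in brain, had 229, 209 and 228 CPM in VPA 391, 392 and 393. In controls 401, 402 and 408 the values were 232, 251 and 245 CPM, so VPA 391 lay just below the lowest control (-0.14 ± 0.054, adjusted p = 0.236). PFKM, the muscle form, had 434 to 440.1 CPM in VPA and 441 to 475 CPM in controls (-0.06 ± 0.049, adjusted p = 0.561).

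By FPKM, PFKM made up 53.7% ± 1.24 of the 3 genes in VPA and 51.8% ± 0.821 in controls. PFKL made up 10.04% ± 0.319 and 11.3% ± 0.738, and PFKP 36.2% ± 1.02 and 36.9% ± 0.695. The share fixed for testing, that of PFKP, differed by -0.65 percentage points (exact permutation test, 2-sided, p = 0.40, adjusted p = 0.667 over 8 families). With 3 libraries against 3 the smallest p this test can give is 0.1, and none of the 8 isozyme shares reached it.

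**Figure D4:**
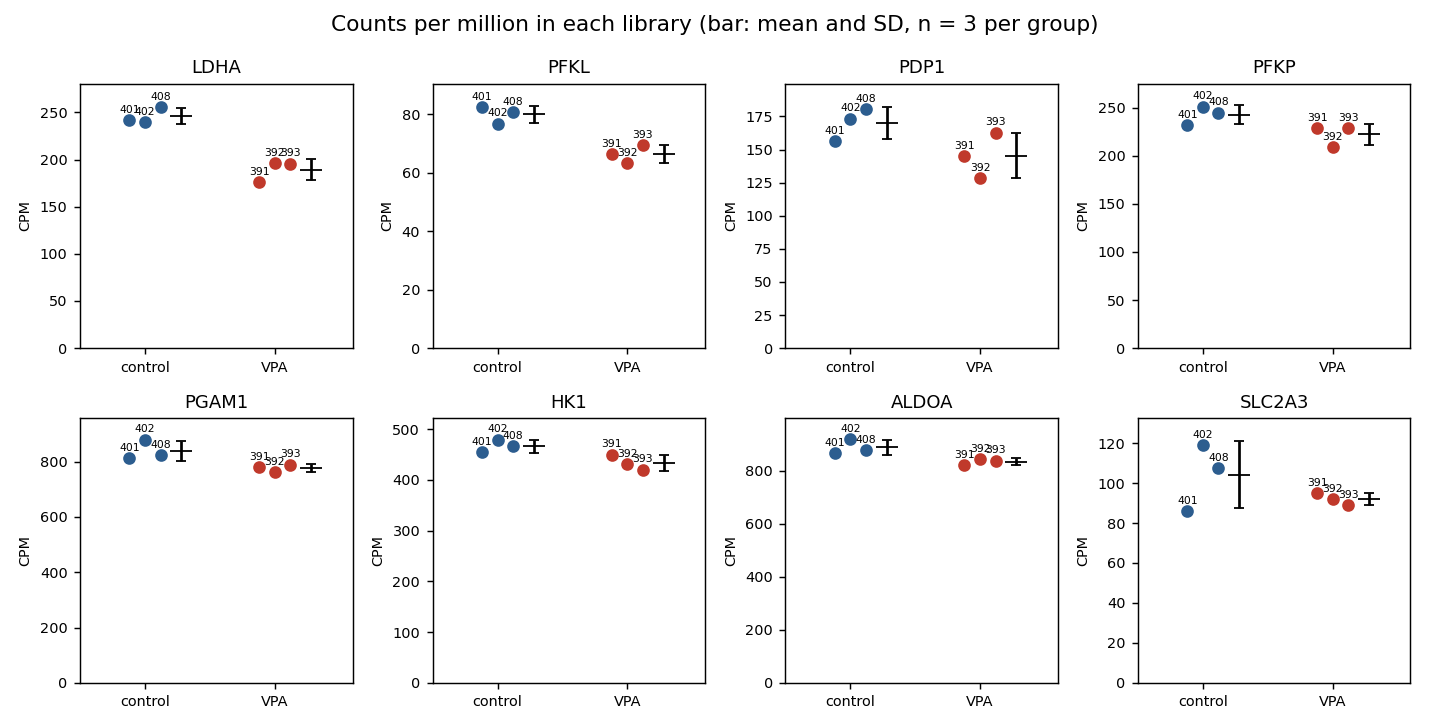
CPM in each library (points, labelled by animal) for the 8 genes with the lowest p, with mean and SD beside each group (n = 3). LDHA and PFKL show a gap between groups, PFKP, PGAM1, HK1 and ALDOA are separated narrowly, and PDP1 and SLC2A3 overlap.

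The aldolases differed little in level. ALDOA, the widely expressed form, had 822, 845 and 838 CPM in VPA 391, 392 and 393 and 867, 919 and 879 CPM in controls 401, 402 and 408. The groups did not overlap, but the difference was small (-0.10 ± 0.047, adjusted p = 0.316). ALDOC had 1631 to 1845 CPM in VPA and 1701 to 1900.0 CPM in controls, with overlap (-0.05 ± 0.065, adjusted p = 0.784).

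Of the lower steps, PGAM1, the phosphoglycerate mutase of brain, had the lowest p. It had 782, 762 and 789.6 CPM in VPA 391, 392 and 393. Controls 401, 402 and 408 had 813, 879.9 and 823 CPM, all above the VPA libraries (-0.12 ± 0.050, adjusted p = 0.263). The other lower-step genes were flatter: -0.07 ± 0.047 for PGK1, -0.07 ± 0.051 for the pyruvate kinase gene PKM, -0.06 ± 0.051 for ENO2, -0.03 ± 0.060 for GAPDH and -0.01 ± 0.046 for ENO1. ENO1 turned positive when libraries were scaled by their size only. GPI, which forms fructose-6-phosphate, had -0.07 ± 0.045, and the triose isomerase gene TPI1 -0.10 ± 0.079 with its lowest value, 644 CPM, in VPA 391.

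PFKFB enzymes set the level of fructose-2,6-bisphosphate, the strongest activator of phosphofructokinase. Their estimates pointed both ways and none passed: 0.11 ± 0.16 for PFKFB2, -0.08 ± 0.076 for PFKFB3 and 0.16 ± 0.12 for PFKFB4. PFKFB3 held 51.7% ± 3.62 of the family's FPKM in VPA and 55.7% ± 4.26 in controls (exact permutation test, p = 0.30, adjusted p = 0.667).

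Lactate transporters did not separate the groups. SLC16A1 (MCT1), found in glia and vessels, had 46.5, 46.8 and 39.1 CPM in VPA 391, 392 and 393 and 41.4, 44.7 and 44.8 CPM in controls 401, 402 and 408. Its log2 fold change was 0.0036 ± 0.088, close to 0 and with both groups inside a common range. SLC16A3 (MCT4), the astrocyte exporter, had 4.18 to 5.12 CPM in VPA and 4.67 to 6.77 CPM in controls (-0.25 ± 0.19, adjusted p = 0.552). SLC16A7 (MCT2), the neuronal importer, ran from 1.90 to 3.39 CPM over the controls, with the VPA libraries inside that range (-0.03 ± 0.29, adjusted p = 0.974).

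Genes for the entry of pyruvate into mitochondria differed little. The carrier genes MPC1 and MPC2 had -0.01 ± 0.048 and -0.05 ± 0.070. MPC1 lay between 102.7 and 108.8 CPM in all 6 libraries and turned positive when scaled by library size only. Of the pyruvate dehydrogenase subunits, PDHB lay between 88.9 and 92.1 CPM in all 6 (-0.04 ± 0.050). DLAT, the acetyltransferase subunit, had -0.08 ± 0.057 and PDHA1, the catalytic alpha subunit, 0.08 ± 0.057.

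The regulators of the complex were more mixed. PDP1, the phosphatase that activates it, had 145, 128 and 163 CPM in VPA 391, 392 and 393. Controls 401, 402 and 408 had 156, 173 and 180.2 CPM, so that VPA 393 lay inside the control range (-0.24 ± 0.083, adjusted p = 0.192). The log2 fold change of PDP1 was -0.16 without VPA 392 and -0.06 with the oligodendrocyte markers as covariate.

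PDK2 was the 1 member higher in every VPA library, at 157 to 163 CPM against 144 to 155 CPM, a small difference (0.08 ± 0.049, adjusted p = 0.462). PDK4, the kinase that rises with fasting and fat use, differed more between animals than between groups. It had 68.4, 44.6 and 24.0 CPM in VPA 391, 392 and 393 and 33.0, 24.1 and 55.1 CPM in controls 401, 402 and 408 (0.28 ± 0.35, adjusted p = 0.756). The log2 fold change of PDK4 was -0.15 without VPA 391, -0.47 with oligodendrocyte markers as covariate and 1.85 with neuron markers. PDK1 and PDK3 had 0.01 ± 0.067 and -0.07 ± 0.064.

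Libraries shared part of this variation. Control 402 held the highest value in 17 of the 34 genes and VPA 393 the lowest in 10, while control 401 was highest in 8. The 34 genes together took 14679 to 15664 CPM in VPA and 15014 to 16643 CPM in controls, the top value in control 402. Leaving out the LDHB row, they took 14194 to 14706 CPM in VPA, lowest in VPA 393, and 14515 to 15629 CPM in controls. Control 402 also had the lowest oligodendrocyte marker sum of the 6, at 13278 CPM. Without it 25 of the 34 estimates were negative and the median was -0.05. Without VPA 393, the library with the highest striatal marker sum, 22 of the 34 and 11 of the 15 enzymes to pyruvate were negative.

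**Figure D5:**
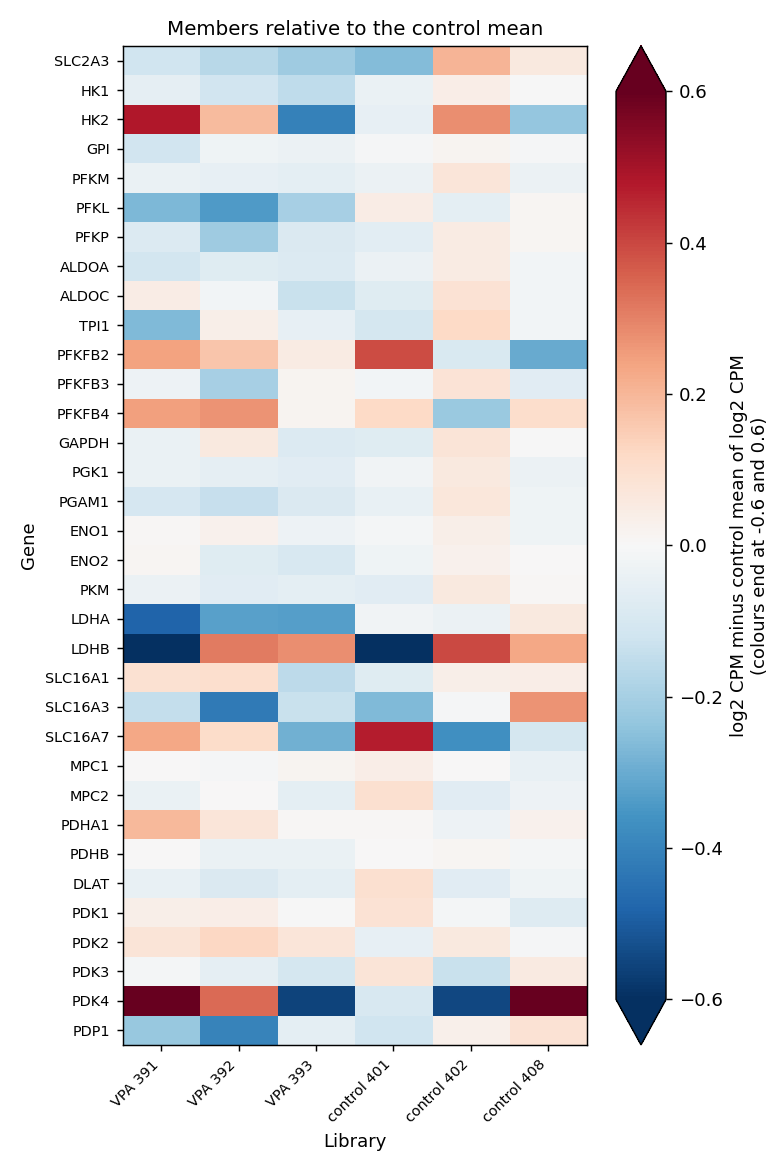
Log2 CPM of each gene in each library minus its control mean (red above, blue below, colours end at -0.6 and 0.6). LDHA and PFKL are blue in all 3 VPA libraries, LDHB is blue in VPA 391 and control 401, and control 402 is red for most glycolytic enzymes.

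In the lists of bordering pathways edgeR called 0 genes at an adjusted p under 0.05, where 0.362% of all genes tested were called. DESeq2, which called 3.64% of its 12198 genes, called GPD1, GOT1 and VEGFA among the genes named here. Apart from SLC2A1, those were the 2 genes lowest in edgeR p of each list, so no share of a whole list follows. At an unadjusted p under 0.05 in edgeR, 8.69% of all genes tested were higher and 7.47% lower. By that limit 3 were higher and 1 lower among 31 genes of the further glycolysis list. The counts were 0 and 4 among 25 genes of the citric acid cycle list, and 0 and 0 among 8 of the pentose phosphate list. They were 4 higher and 2 lower among 24 genes of the hypoxia list, and 0 and 2 among the 19 regulators. Of 31 further tested genes of glycolysis, pyruvate and lactate handling, 13 had positive and 18 negative estimates (median -0.03). Lowest in p were GPD1, which links glycolysis to glycerol-3-phosphate and marks oligodendrocytes, at 33.0 ± 1.40 CPM in VPA and 25.2 ± 1.94 CPM in controls (0.38 ± 0.085, adjusted p = 0.0773), and PDPR, a regulator of the pyruvate dehydrogenase phosphatase (0.23 ± 0.065, adjusted p = 0.127). The endothelial and glial glucose transporter gene SLC2A1, named after its values were seen, had 0.0021 ± 0.071.

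In the citric acid cycle and malate-aspartate shuttle, 13 of 25 genes had positive and 12 negative estimates (median 0.0037). GOT1, the cytosolic aspartate aminotransferase of the shuttle, had 321 ± 3.08 CPM in VPA and 359 ± 13.03 CPM in controls (-0.17 ± 0.047, adjusted p = 0.116). IDH3A, a subunit of isocitrate dehydrogenase, had -0.15 ± 0.055 (adjusted p = 0.219). Pentose phosphate genes had 6 positive and 2 negative estimates (median 0.09), led by H6PD (0.23 ± 0.14, adjusted p = 0.435) and TKT (0.08 ± 0.055, adjusted p = 0.515).

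Genes around the hypoxia-inducible factor, which is known to induce LDHA and other glycolytic genes, had 12 positive and 12 negative estimates (median 0.00060). The list mixes regulators of the factor with its targets, so this count does not measure the activity of the factor, which was not tested. EGLN3, an oxygen-sensing prolyl hydroxylase, had 0.29 ± 0.084 (adjusted p = 0.135). VEGFA, the vascular growth factor, had -0.46 ± 0.16 (adjusted p = 0.183). The log2 fold change of VEGFA was -0.22 without control 402 and 0.20 with oligodendrocyte markers as covariate. DESeq2 called VEGFA (adjusted p = 0.0351), GPD1 (0.0308) and GOT1 (0.0397), and for each it was the 1 of 21 alternatives that did. Among 19 regulators of glycolysis and mitochondria, 9 estimates were positive and 10 negative (median -0.01), with SIRT5, a mitochondrial deacylase, at -0.34 ± 0.11 (adjusted p = 0.163) and PRKAB1, a subunit of AMP-activated kinase, at -0.23 ± 0.088 (adjusted p = 0.239).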

How the data were processed

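Per the labels' protocols, TRIzol served for RNA extraction and the VAHTS Universal V6 kit for library preparation. For aligner, counter, strand setting and genome build, the sources used here give no name. The authors deposited raw counts and FPKM per gene and library, per the file headers and names. All 97071 nonzero FPKM values equalled the count over the file total and 1 gene length (relative tolerance 0.001). Names of 24 genes had become dates and stayed in the totals. Every pair of libraries differed by more than sampling noise (chi-square per degree of freedom 5.30 to 11.6 over 15 pairs).

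Counts were fitted in R 4.3.3 with edgeR 4.0.16 (filterByExpr, TMM factors 0.993 to 1.01, glmQLFit, glmQLFTest, no covariate, 4 residual degrees of freedom). Benjamini-Hochberg adjustment ran over all 14373 genes tested, with a threshold of 0.05. Standard errors came from the F statistic. The scripts were tested on simulated counts. Alternatives were other scaling and filters, robust dispersion, DESeq2 1.42.0, limma 3.58.1 (its voom method, and its trend method using log2(FPKM + 1) with a mean FPKM of at least 0.5, with a pseudocount of 0.1, or unfiltered), covariates, and libraries left out. Leaving out VPA 391 with control 401 was chosen after seeing the data. Members, lists and tests were chosen with earlier results of these data known. Values are given for every library for called members and the 8 lowest in p. Their isozymes are given by library or by range, and the 2 genes lowest in p of each further list by group means or fold change. Other members and features named were chosen for their role or after their values were seen. A planned count of promoter motifs was not run, as promoter sequences were not used here. Reads shared by near-identical or overlapping genes cannot be separated.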

Additional observations from a re-analysis of the deposited data

How the results depend on the processing

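All genes called numbered 52, and 141 without a filter, 168 with robust dispersion, 444 with DESeq2, 30 with limma-voom, 2, 2 and 1 with limma-trend on log2(FPKM + 1), on log2(FPKM + 0.1) and without a filter, 2 with the oligodendrocyte covariate, 0 with the neuron covariate (1269 genes at unadjusted p under 0.05), 344 at an adjusted p of 0.1, 0 to 66 with 1 library left out, and 0 without VPA 391 and control 401 (2010 unadjusted). Members called numbered 1, and 2 with robust dispersion, with DESeq2 and at 0.1. It was 0 with all 3 limma-trend fits, both cell type covariates and without VPA 391 and control 401, and 0 to 1 with 1 library left out. The median log2 fold change of the measured members, -0.066, was -0.023 with the oligodendrocyte covariate, -0.095 without VPA 391 and control 401, and -0.093 to -0.048 with 1 library left out. Negative members numbered 20 to 29 over all 21 alternatives. There were 9 members lower in VPA with groups that do not overlap, 15 without VPA 391 and control 401, and 9 to 13 with 1 library left out. Between groups, the LDHA share of LDHA and LDHB differed by 8.56 percentage points (-4.48 to 15.1 with 1 library left out) and the PDK4 share of PDK1 to PDK4 by 1.83 points (-1.49 to 5.06, and -0.41 without control 402). The causes were not tested, except that fewer libraries or an added covariate leave fewer degrees of freedom. No paired analysis was made because the labels give no litter, batch or pairing between animals of the groups.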
